A study of Mus musculus with 36 samples.

Results

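CpG methylation of mouse liver DNA was examined at 4 autosomal loci, A1bg, Pik3c2g, Dock1 and Sntg2, which were chosen by the difference in methylation between sires and dams. Each locus ran from 10 kb upstream of the gene to 10 kb past its end in mm9, the mouse reference to which the reads had been aligned. Together the loci held 8823 of the 18887127 autosomal CpGs measured, with 143 at A1bg, 2031 at Pik3c2g, 5381 at Dock1 and 1268 at Sntg2. Whole-genome bisulfite sequencing, which reads unmethylated cytosines as thymines, was performed on liver from 24 animals of 8 groups, 3 animals each. The groups were B6 (C57BL/6N) and C3 (C3H/HeN) males and females, both strains inbred, and sons and daughters of the reciprocal crosses B6C3F1 and C3B6F1. The parents had been mated at 10 weeks of age, and all animals were sacrificed at 20 weeks. The dams had carried and nursed litters while the daughters were virgins, and no agent or engineered allele was used. Sires and dams therefore differed in sex and in pregnancy history. Dams and daughters differed in pregnancy history, in generation and in being inbred or hybrid, and these cannot be told apart here. Each role (sires, dams, sons and daughters) had 6 animals, 3 from either strain or cross. Per the paper, 3 families of each cross were chosen, each with a sire, a dam, a son and a daughter. The labels do not link the members of a family.

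In mammalian somatic tissue most CpGs outside CpG islands are methylated, and the exceptions lie mostly at promoters and at enhancers, where bound transcription factors go with low methylation. Liver is a tissue with marked sex differences in gene expression, many of them set by the sex-specific pattern of growth hormone secretion. A1bg encodes alpha-1-B glycoprotein, a plasma protein of the immunoglobulin superfamily that is known to be expressed more in female than in male mouse liver. Pik3c2g encodes the gamma isoform of class II phosphoinositide 3-kinase, a lipid kinase found mainly in liver. Dock1 encodes DOCK180, a guanine nucleotide exchange factor that activates the small GTPase Rac. Sntg2 encodes gamma-2-syntrophin, an adaptor protein of the dystrophin complex.

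Depth was 19.4 to 32.8 reads per CpG over the animals. Replicates of a group had a mean chi-square of 1.47 to 1.60 per window and degree of freedom over 24 pairs of animals. It was read in windows of intermediate methylation on a single chromosome, with each CpG of a read counted as a separate draw. Neighbouring CpGs share reads, so the value does not separate spread between animals from sampling of reads. Start sites of cell type markers were read 1000 bp to either side. Hepatocyte genes had low or intermediate methylation in every role, with means of 31.2 to 38.3% at Alb and 24.6 to 29.2% at Apoa1. The leukocyte gene Ptprc had means of 75.3 to 79.5% and the Kupffer cell gene Csf1r of 87.2 to 88.8%. The start sites of endothelial Kdr, at 4.72 to 5.04%, and of stellate Lrat, at 6.23 to 7.40%, and Col1a1, at 15.6 to 17.4%, were lower than any hepatocyte gene, so the level at a start site did not separate hepatocyte markers from the rest. At all 14 markers the ranges of the 4 roles overlapped, and any part of cell composition in the differences below was not tested.

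The difference at each locus was located by summing counts over 5 neighbouring CpGs and joining at least 5 CpGs at which dams and sires differed by at least 20 percentage points in the same direction. This gave 7 intervals, 2 at A1bg, 3 at Pik3c2g and 1 each at Dock1 and Sntg2. The stretches below carried the largest summed dam-sire difference among runs of CpGs no longer than 300 bases as printed. Each was taken from the strongest interval of its locus. They are plus-strand mm9 sequence, 5′ to 3′, and capitals mark the CpGs counted. In the Pik3c2g stretch a further CpG near the end, in small letters, was not among those counted. The marked CpG before it, at 139801334, lay 5 bp from a listed single-base difference (SNV), so this stretch is not the same in both strains. The A1bg stretch lay at chr15:60751809-60752011 and overlapped coding exon sequence at 145 of its 203 bases. The Pik3c2g stretch lay at chr6:139801216-139801345 with 35 of 130 bases in a coding exon. The Dock1 stretch at chr7:142235529-142235828 and the Sntg2 stretch at chr12:31026697-31026993 were intronic.
A1bg: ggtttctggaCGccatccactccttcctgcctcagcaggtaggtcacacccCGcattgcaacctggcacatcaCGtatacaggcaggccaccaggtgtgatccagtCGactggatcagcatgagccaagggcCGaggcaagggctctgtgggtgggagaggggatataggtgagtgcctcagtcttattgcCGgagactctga
Pik3c2g: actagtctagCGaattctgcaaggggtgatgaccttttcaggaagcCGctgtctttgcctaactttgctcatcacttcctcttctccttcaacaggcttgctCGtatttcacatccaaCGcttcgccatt
Dock1: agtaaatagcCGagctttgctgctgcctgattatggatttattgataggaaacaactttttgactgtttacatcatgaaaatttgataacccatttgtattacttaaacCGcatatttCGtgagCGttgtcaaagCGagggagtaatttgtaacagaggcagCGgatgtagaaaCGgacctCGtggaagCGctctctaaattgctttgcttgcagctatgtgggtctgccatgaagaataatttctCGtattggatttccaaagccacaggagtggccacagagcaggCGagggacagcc
Sntg2: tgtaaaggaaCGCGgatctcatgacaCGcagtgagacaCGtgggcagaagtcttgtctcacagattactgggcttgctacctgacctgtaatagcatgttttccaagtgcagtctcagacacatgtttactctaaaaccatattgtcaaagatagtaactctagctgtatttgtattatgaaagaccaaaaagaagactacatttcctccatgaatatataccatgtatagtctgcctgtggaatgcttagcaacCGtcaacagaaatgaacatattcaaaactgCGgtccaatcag
In the printed A1bg stretch, counts pooled over 6 animals gave 88.5% methylation in sires, 27.5% in dams, 83.4% in sons and 53.7% in daughters over 6 CpGs. In the printed Pik3c2g stretch of 4 CpGs, the values were 13.6% in sires, 78.6% in dams, 16.8% in sons and 64.3% in daughters. The 11 CpGs of the Dock1 stretch were methylated at 26.7% in sires, 89.6% in dams, 32.8% in sons and 89.1% in daughters. The 6 CpGs of the Sntg2 stretch had 27.5% in sires, 84.6% in dams, 27.4% in sons and 85.2% in daughters. A1bg was the locus of the 4 with lower methylation in females. Daughters stood apart from dams there and, by less, at Pik3c2g.

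At Dock1 the strongest interval covered 970 bp of an intron (chromosome 7, 142235082 to 142236051) and held 16 CpGs. It lay 372712 bp from the annotated start. Sires had between 19.8 and 33.4% methylation with a median of 27.3%, and dams between 81.6 and 86.4% with a median of 84.5%. Sons ranged from 27.7 to 37.1% with a median of 33.8%, and daughters from 77.7 to 87.8% with a median of 85.2%. Every female was above every male, and daughters lay among the dams. Over the genome, ranges of 6 daughters and 6 sons did not overlap in 0.601% of the 500-nt windows tested below, and ranges of dams and sires in 0.977%. The means were 27.4% ± 4.65 in sires, 84.3% ± 1.86 in dams, 33.0% ± 3.63 in sons and 84.1% ± 3.75 in daughters (SD, n = 6). Sires and dams chose the locus, so their difference of 56.8 points is given without a test. Daughters were 51.1 points above sons, with an exact permutation p = 0.00216 (two-sided, n = 6), the smallest that 6 against 6 animals allow. On a scale with the sires' mean at 0 and the dams' mean at 100, daughters stood at 99.7 and sons at 9.79. No SNV between the strains lay within 221521 bp of the interval.

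Within the Dock1 interval, the CpG at 142235664 was methylated at 23.1% in sires and 97.8% in dams, and at 28.9% in sons and 94.5% in daughters. The edges were less regular. The first CpG, at 142235082, had 30.0% in sires and 48.5% in dams, and the last, at 142236051, had 23.1% in sires and 15.9% in dams and entered the interval through the sums with its neighbours. The only CpG in the 500 bp past it had 32.0% ± 12.1 in sires, 56.1% ± 9.12 in dams, 46.9% ± 9.50 in sons and 74.7% ± 9.47 in daughters (SD, n = 6). In the 500 bp before the interval all roles lay between 80.7 and 83.9%.

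At Sntg2 the strongest interval was intronic as well, with 12 CpGs over 1627 bp (chromosome 12, 31025568 to 31027194), 31046 bp into the gene. Sires ranged from 22.7 to 37.8% with a median of 30.3%, and dams from 65.3 to 75.6% with a median of 72.1%. Sons ranged from 23.4 to 36.3% with a median of 28.5%, and daughters from 68.2 to 73.9% with a median of 70.6%. Again no male reached the lowest female, and daughters did not separate from dams. Daughters averaged 70.9% ± 2.09 and sons 29.7% ± 4.63 (SD, n = 6), a difference of 41.2 points with an exact permutation p = 0.00216, the smallest possible. Daughters stood at 98.3 and sons at -0.309 on the scale from sires to dams. The interval held 6 SNVs, and leaving out CpGs within 10 bp of one gave 45.9 points. Not all CpGs took part, as the one at 31026199 had 12.6% in sires and 15.0% in dams.

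Pik3c2g had 3 intervals, all with higher methylation in females. The strongest held 9 CpGs over 740 bp (chromosome 6, 139800962 to 139801701), overlapped an exon and lay 8793 bp from the nearest annotated start, that of a shorter Pik3c2g transcript. Sires ranged from 10.9 to 35.5% with a median of 29.5%, and dams from 72.4 to 79.8% with a median of 77.6%. Sons ranged from 22.8 to 38.1% with a median of 28.3%, and daughters from 62.8 to 74.0% with a median of 68.0%. Females and males did not overlap, and the daughters' range met that of the dams at its upper end. In the 500-nt window inside it (139801001 to 139801500) dams had 75.3 to 81.4% and daughters 57.1 to 71.7%, which did not overlap, as in 0.479% of all windows tested. Daughters averaged 68.1% ± 3.80 and sons 29.1% ± 5.09 (SD, n = 6), a difference of 38.9 points with an exact permutation p = 0.00216, the smallest possible. Their position between sires and dams was 82.2.

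The sires at this Pik3c2g interval fell apart by strain. B6 sires had 33.8, 35.5 and 34.1%, and C3 sires 17.1, 10.9 and 25.1%, whereas dams averaged 78.2% ± 1.57 in B6 and 76.2% ± 3.41 in C3 (SD, n = 3). The interval held 4 SNVs. At the tested window inside it (139801001 to 139801500), B6 and C3 parents differed by 4.74 points, which did not pass (limma, Benjamini-Hochberg adjusted p = 0.103). That comparison averages sires with dams, so the split of the sires was not tested. It was not particular to this locus. At the strongest Sntg2 interval B6 sires had 32.9, 32.0 and 37.8% and C3 sires 25.3, 22.7 and 28.5%, also without overlap. How often 3 B6 and 3 C3 sires do not overlap over all windows was not counted.

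The second Pik3c2g interval held 5 CpGs over 121 bp and lay 5191 bp upstream of the gene (139565098 to 139565218). Sires averaged 43.8% ± 7.08, dams 72.6% ± 6.33, sons 44.9% ± 5.65 and daughters 73.9% ± 5.45 (SD, n = 6). Daughters stood at 104 on the scale from sires to dams, among the dams. The third, with 5 CpGs in an intron (139809700 to 139810256), had 23.6% ± 10.9 in sires, 49.4% ± 16.5 in dams, 20.2% ± 3.09 in sons and 43.3% ± 6.28 in daughters. Here both sexes were split by strain, since B6 males and females averaged 33.1 and 64.4% and C3 males and females 14.1 and 34.5%. Sons and daughters did not overlap in either interval, at exact permutation p = 0.00216 for both.

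**Figure D1:**
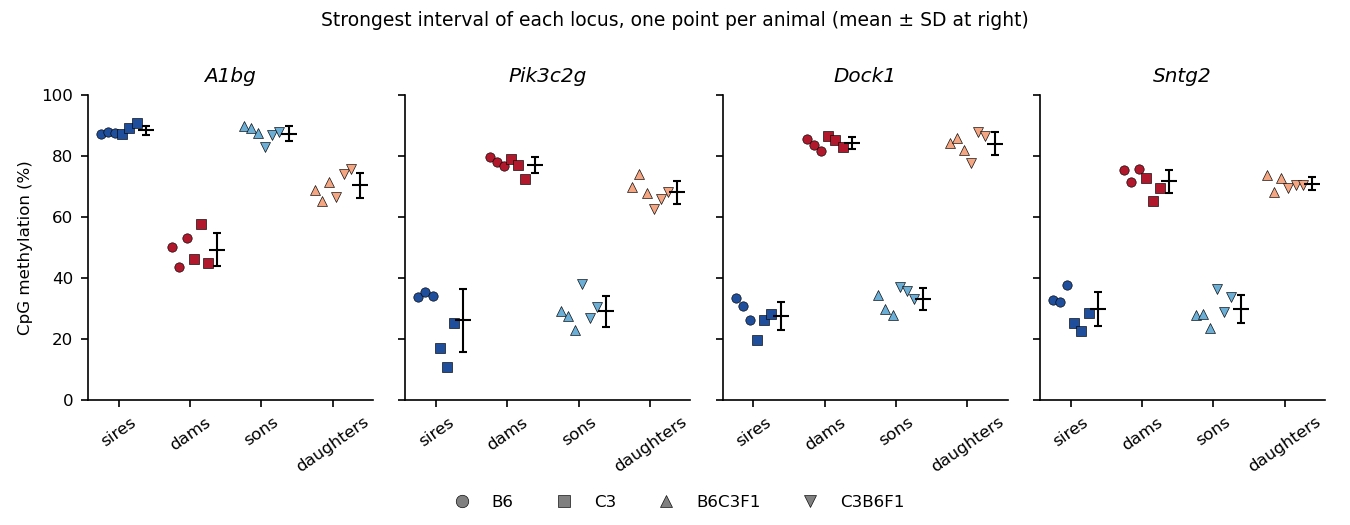
Percent methylation of the strongest interval of each locus (vertical axis) in sires, dams, sons and daughters, with 1 point per animal, shapes for the strain or cross, and mean ± SD beside the points. Daughters lay with dams at Dock1 and Sntg2, slightly below them at Pik3c2g, and between dams at 49.3% and sons at 87.3% at A1bg.

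At A1bg, the direction and the daughters differed from the other 3 loci. The strongest interval held 33 CpGs over 2031 bp (chromosome 15, 60750636 to 60752666, on a gene that spans 60749144 to 60752825 on the minus strand). It ran through coding exons and the introns between them and began 159 bp inside the gene from its start. Sires ranged from 87.2 to 90.8% with a median of 87.7%, and dams from 43.6 to 57.6% with a median of 48.2%. Sons ranged from 82.9 to 89.7% with a median of 87.6%, and daughters from 65.2 to 75.8% with a median of 70.3%. The 6 daughters lay above all dams and below all sons, so that 3 separate levels were seen. Over the genome daughters and dams did not overlap in 0.479% of all windows tested. Means were 88.4% ± 1.40 in sires, 49.3% ± 5.38 in dams, 87.3% ± 2.45 in sons and 70.4% ± 4.18 in daughters (SD, n = 6). Daughters were 17.0 points below sons, with an exact permutation p = 0.00216, the smallest possible. They were 21.1 points above dams, and their position between sires and dams was 46.0. That the dams' level helped to choose the locus bars a test of dams against daughters.

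The size of the A1bg difference depended on how the interval was drawn, and the place of the strongest interval moved with it. When 30 points were required, the strongest interval held 6 CpGs over 225 bp (60752413 to 60752637). Sons and daughters differed there by 28.6 points, at a daughter position of 54.9. Joining single CpGs without summing gave a strongest interval of 6 CpGs over 182 bp (60751819 to 60752000). It had 31.0 points, at a position of 58.9. Both stretches lay inside the main interval and did not overlap each other. Daughters stayed near the middle between sires and dams under all 3 definitions.

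The A1bg interval was not uniform. At the CpG 60751860, in the exon printed above, methylation was 97.0% in sires, 22.6% in dams, 92.2% in sons and 54.9% in daughters. At 60750950 daughters, with 33.3%, were nearer to dams, with 21.7%, than to sons, with 73.0%. At 60750656 the reverse held, with 90.0% in daughters, 90.3% in sons and 62.6% in dams. At 60751395 all roles lay between 76.6 and 83.2%.

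A second A1bg interval held 7 CpGs over 1363 bp past the end of the gene (60746954 to 60748316), 4509 bp from the start. Sires averaged 91.6% ± 2.75, dams 53.8% ± 5.17, sons 89.7% ± 2.35 and daughters 76.4% ± 3.91 (SD, n = 6). Daughters, at 72.4 to 81.7%, were again above every dam, at 48.9 to 62.9%, and below every son, at 87.1 to 93.9%. Their position was 40.1, and their difference of 13.2 points below sons had an exact permutation p = 0.00216. Between both intervals, methylation was 94.8% in sires and 90.0% in dams over the first 500 bp past the strongest, 93.2 and 78.4% over the 2 CpGs of the next 500 bp, and 96.5 and 93.3% at 1000 to 2000 bp. The first 500 bp on the promoter side were at 16.0% in sires, 14.4% in dams, 12.5% in sons and 15.2% in daughters, without the separation seen inside the gene. Over the next 500 bp, with 5 CpGs, the roles were apart again, at 71.2% ± 3.00 in sires, 53.6% ± 3.35 in dams, 68.9% ± 3.47 in sons and 63.3% ± 1.97 in daughters (SD, n = 6). No SNV between the strains was listed in the A1bg locus, and both strains behaved alike in value, with dams below sires by 38.7 points in B6 and by 39.6 points in C3.

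**Figure D2:**
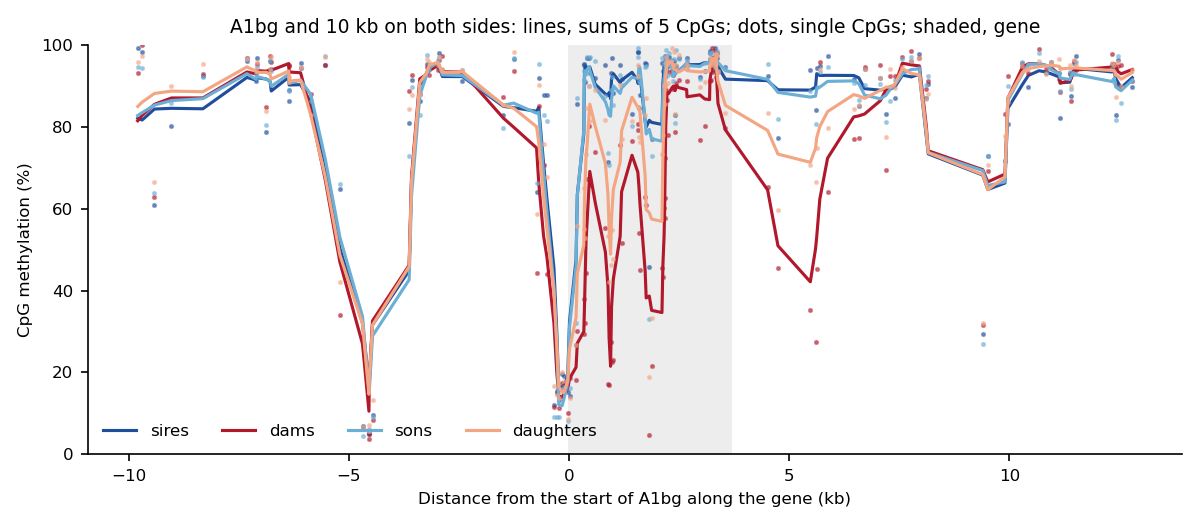
Percent methylation (vertical axis) by distance from the start of A1bg in kb along the gene (horizontal axis), with lines for sums of 5 CpGs and dots for single CpGs pooled over the 6 animals of a role. Dams dipped inside the gene and again past its end, daughters ran between dams and sons in both, and all roles met over the first 500 bp on the promoter side, at 12.5 to 16.0%, beyond which dams were again lowest, at 53.6% against 71.2% in sires over the next 500 bp.

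**Figure D3:**
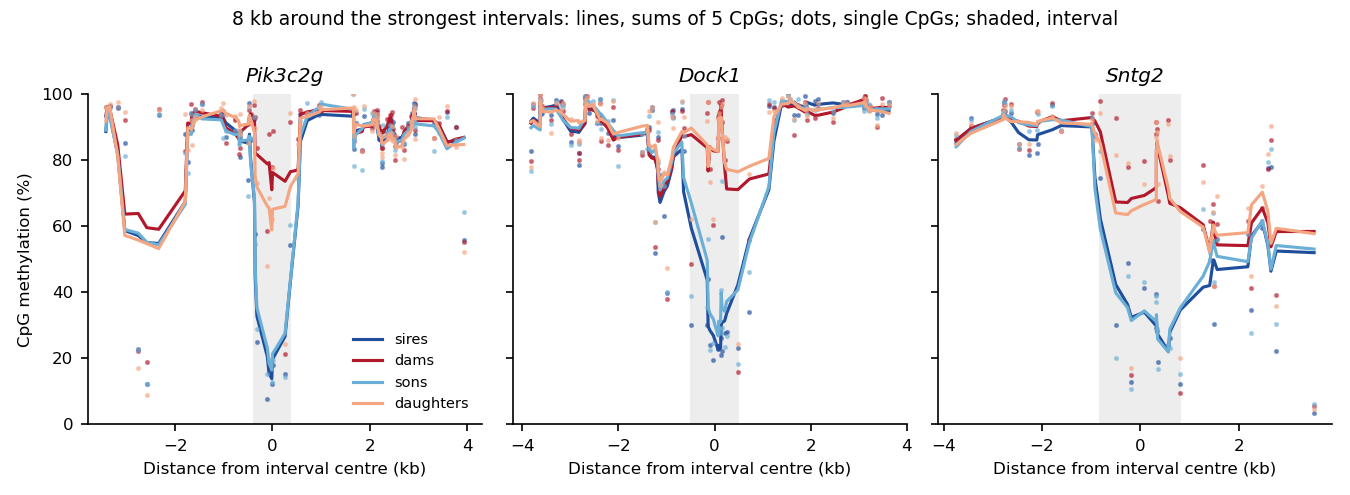
Percent methylation (vertical axis) by distance in kb from the centre of the strongest interval (horizontal axis, 4 kb to either side) at Pik3c2g, Dock1 and Sntg2, with lines for sums of 5 CpGs, dots for single CpGs and the interval shaded. Sires and sons formed a common trough that was shallower in dams and daughters, and the lines came closer together farther out, with role means of 49.7 to 57.9% in the second 500 bp to the right of the Sntg2 interval.

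Outside the strongest intervals average levels of sires and dams were closer. The 7 intervals took 14.3% of the length of the A1bg locus, 0.387% at Pik3c2g, 0.185% at Dock1 and 0.743% at Sntg2. By 5-CpG sums, dams and sires differed by at least 20 points at 40 CpGs of A1bg, 23 of Pik3c2g, 20 of Dock1 and 15 of Sntg2, in a single direction per locus. Of these, 7, 14, 4 and 3 lay outside the strongest interval, respectively. Over all CpGs outside the strongest interval, sires and dams averaged 86.7 and 87.6% at Pik3c2g, 89.9 and 89.9% at Dock1, and 76.1 and 76.8% at Sntg2. At A1bg sires averaged 82.5% and dams 78.3% outside it. The weaker intervals of A1bg and Pik3c2g are still part of these averages.

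Start sites carried little of the difference at the larger genes. Within 500 bp of the annotated start, Dock1 had 1.80 to 2.20% methylation and Sntg2 5.05 to 6.29% in all 4 roles, the low level of CpG-rich promoters. Pik3c2g was methylated at 87.0 to 90.8% around its first start. At A1bg the same 500 bp to either side had 56.8% in sires, 32.7% in dams, 53.3% in sons and 44.8% in daughters, and this span reached into the interval described above.

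At Pik3c2g, Dock1 and Sntg2 some sites fell short of the 5 CpGs asked of an interval. The largest 5-CpG difference left outside was 27.6 points at Pik3c2g, 31.3 at Dock1 and 25.9 at Sntg2. At A1bg it was -18.5 points, short of the 20 points required. The smallest inside was 20.0 points at A1bg, 20.3 at Pik3c2g, 28.4 at Dock1 and 25.0 at Sntg2. At the Dock1 site, 71995 bp into the gene, the single CpG was methylated at 79.6% in sires, 96.7% in dams, 86.0% in sons and 98.6% in daughters. These values are without its neighbours, and a CpG 71732 bp into the gene had 32.1, 91.7, 37.4 and 88.3% in that order. Daughters followed dams there. At the Sntg2 site, 12413 bp into the gene, the 5-CpG sums gave 20.0% in sires, 45.8% in dams, 23.0% in sons and 31.1% in daughters, so that daughters were nearer to sons. The tested window around it (31045501 to 31046000) differed by 19.1 points between dams and sires and by 3.75 points between daughters and sons (limma, adjusted p = 0.871).

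Sons and daughters were then compared in fixed windows of 500 nt, a grid that no difference had shaped. A window needed at least 5 CpGs and 30 counts in every animal, which kept 12 windows of A1bg, 136 of Pik3c2g, 537 of Dock1 and 79 of Sntg2. Across the genome 743 of 1456902 windows, or 0.0510%, passed an adjusted p below 0.05 with a difference of at least 20 points (limma), 691 of them (0.0474%) higher in daughters and 52 (0.00357%) lower. In the 4 loci 6 windows passed. A1bg had 2, both lower in daughters, Pik3c2g 2, Dock1 1 and Sntg2 1, all higher in daughters. The windows share animals and lie partly side by side, so they are not independent of each other.

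The Dock1 window (142235501 to 142236000) was 56.1 points higher in daughters (limma, adjusted p = 8.43e-14), with 88.8% ± 3.82 in daughters and 32.7% ± 2.87 in sons (SD, n = 6). The Sntg2 window (31026501 to 31027000) was 58.2 points higher (limma, adjusted p = 8.43e-14), at 85.5% ± 4.89 against 27.3% ± 6.32. Pik3c2g differed by 47.2 points at 139801001 to 139801500 (limma, adjusted p = 6.20e-11), where daughters had 65.1% ± 5.30 and sons 18.0% ± 6.15. All 3 windows lay inside the strongest intervals.

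The other Pik3c2g window (139718501 to 139719000) was in an intron 81962 bp from the nearest interval and had not been part of one. It held the site of the 27.6-point difference left outside the intervals, at 139718696. Daughters had 87.4% ± 3.40 and sons 64.6% ± 9.19 (SD, n = 6), a difference of 22.7 points (limma, adjusted p = 5.21e-06). Sires were at 68.5% ± 6.44 and dams at 92.5% ± 1.87, so daughters and dams were high together. The difference lay at the CpGs 139718673, 139718685 and 139718696, while the others of the window had 80.7% or more in every group. At 139718685 B6 sires had 40.7% and C3 sires 71.4%, and B6 and C3 dams 95.4 and 96.8%. This gap between the sires was not tested. This window no longer passed without son 3 of C3B6F1, when Pik3c2g kept 1 window. Neither Pik3c2g window had 100 counts in every animal, and 0 were left when that was required. A Pik3c2g window upstream of the gene (139565001 to 139565500) differed by 19.7 points, just under the 20 required (limma, adjusted p = 5.35e-05).

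In A1bg, daughters were 24.2 points below sons at 60751501 to 60752000 (limma, adjusted p = 2.23e-06), with 62.5% ± 7.26 against 86.7% ± 5.55 (SD, n = 6). They were 21.0 points below at 60752001 to 60752500 (limma, adjusted p = 1.49e-07), with 73.1% ± 5.28 against 94.1% ± 3.29. Nearer to the end of the gene the difference was smaller, with 8.62 points at 60750501 to 60751000 (limma, adjusted p = 4.23e-04) and 10.0 points at 60751001 to 60751500 (limma, adjusted p = 0.00402). Dams lay below daughters in these 4 windows too, at 39.4% ± 10.2, 53.1% ± 6.33, 65.8% ± 7.14 and 58.2% ± 5.50 in the order given. Without daughter 2 of B6C3F1, daughter 1 of C3B6F1 or son 2 of C3B6F1, a single A1bg window passed.

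**Figure D4:**
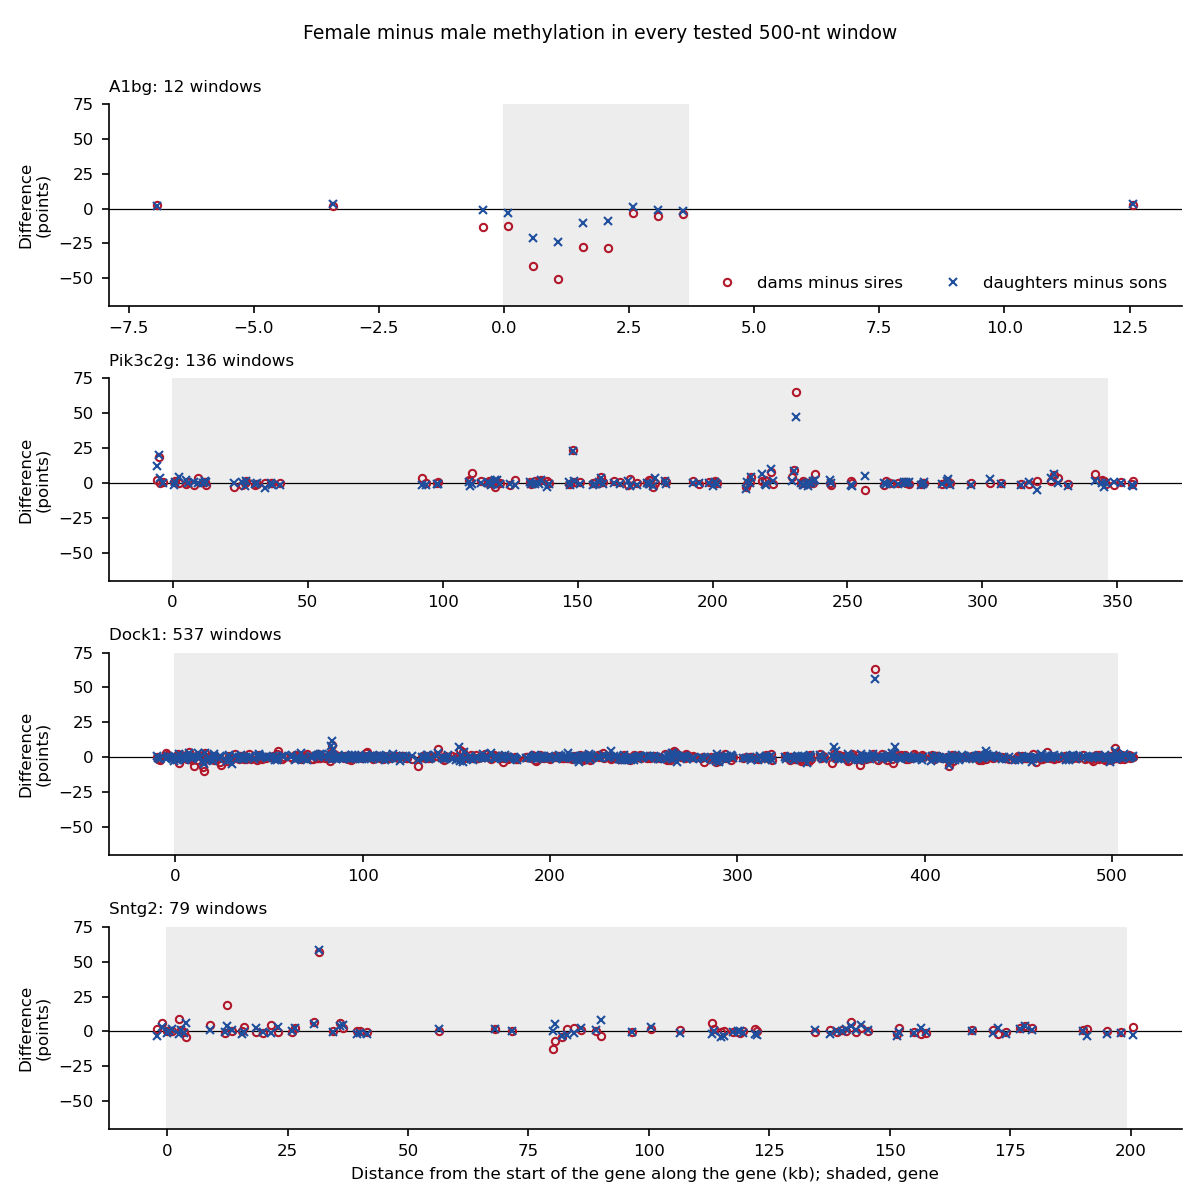
Female minus male methylation in percentage points (vertical axis) in each tested 500-nt window by distance from the gene's start in kb (horizontal axis, gene shaded), for dams minus sires (circles) and daughters minus sons (crosses). Crosses reached 56.1 points at Dock1 and 58.2 at Sntg2, beside the circles, and both lay near 0 along most of those genes, while inside A1bg the crosses, at most 24.2 points below 0, lay above the circles.

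Calls between the parental strains fell in Sntg2 under the main rule. Between B6 and C3 parents, 6 windows of Sntg2 and 0 of A1bg, Pik3c2g and Dock1 passed the rule, where 0.494% of all windows did. Pik3c2g had 2 such windows when the grid was shifted by 250 bp and 3 when 3 CpGs were enough. At a difference of 10 points, Pik3c2g had 1 window higher and 5 lower in B6, and Dock1 2 higher and 1 lower. Over the genome 34774 of 1456902 windows passed at 10 points. Of the Sntg2 windows, 1 was left when 100 counts were required in every animal. At an unadjusted limma p below 0.05 there were 156 of 764 windows in the 4 loci (20.4%), near the 18.9% of all windows. In B6, 4 of the Sntg2 windows were more methylated, against 0.245% of all windows, and in C3 the other 2, against 0.249%. Sntg2 had 6.34 SNVs per kb, against 5.46 at Pik3c2g, 0.583 at Dock1 and 0 at A1bg.

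The Sntg2 window with the largest strain difference (31027501 to 31028000) began 307 bp past the end of the interval that separated the sexes. B6 males and females averaged 85.0 and 89.5%, and C3 males and females 18.5 and 27.5%, a difference of 64.2 points between strains (limma, adjusted p = 6.41e-19). F1 animals of both crosses and sexes averaged between 54.1 and 61.5%, between the strains. Daughters and sons differed by 5.01 points there (limma, adjusted p = 0.777). In the sex-different window 1 kb away, by contrast, the strains differed by 8.00 points (limma, adjusted p = 0.0313). The boundary between a stretch split by sex and a stretch split by strain lay in a Sntg2 intron, between windows 1 kb apart.

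The next Sntg2 windows were 31001501 to 31002000, at 62.5 points higher in B6 (limma, adjusted p = 5.99e-15), and 31042501 to 31043000, at 32.7 points (limma, adjusted p = 5.17e-11). In the opposite direction, 30901501 to 30902000 was 48.3 points lower in B6 (limma, adjusted p = 5.52e-15) and 30900501 to 30901000 was 30.1 points lower (limma, adjusted p = 3.76e-12). CpGs with an SNV on the C or G could not appear, as only CpGs present in mm9 and in both strains had been kept. Without CpGs within 10 bp of an SNV the differences of the 6 windows were between -48.3 and 67.1 points with the same signs. Sons and daughters differed by at most 5.01 points in the 6 windows.

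**Figure D5:**
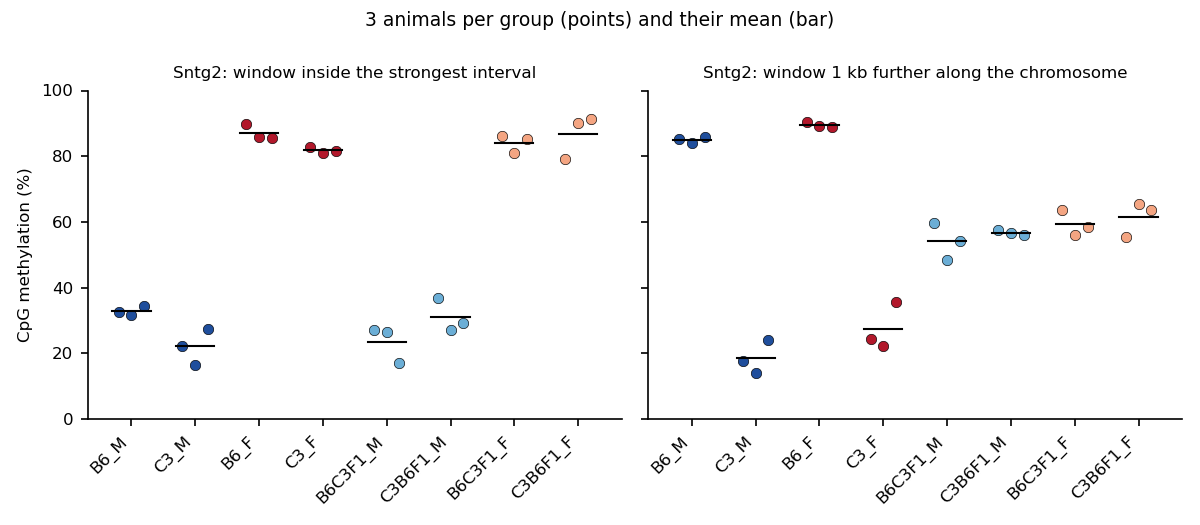
Percent methylation (vertical axis) of 2 neighbouring Sntg2 windows in the 8 groups (horizontal axis), with 1 point per animal and a bar at the mean of 3. The window inside the strongest interval split by sex, whereas the window 1 kb away split B6 from C3, with the F1 groups at 54.1 to 61.5%.

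Whether the dam-sire difference depended on strain was tested as an interaction, and 0 windows of the 4 loci passed, where 0.00151% of all windows did. An unadjusted limma p below 0.05 was reached by 42 windows (5.50%, against 5.42% of all windows), and the smallest adjusted p in the loci was 0.639. At the strongest intervals dams and sires differed by 53.5 points in B6 and 60.1 in C3 at Dock1, by 39.9 and 43.7 at Sntg2, and by 43.8 and 58.5 at Pik3c2g. Between B6C3F1 and C3B6F1, 0 windows of the loci passed (0.000686% of all), with 58 at an unadjusted limma p below 0.05 (7.59%, against 6.69% of all) and a smallest adjusted p of 0.452. For a son-daughter difference that depended on the cross, 0 windows of the loci passed (6.86e-05% of all), with 34 at an unadjusted limma p below 0.05 (4.45%, against 4.87% of all). By value, daughters were above sons by 53.4 points in B6C3F1 and 48.7 in C3B6F1 at Dock1, by 45.2 and 37.3 at Sntg2, and by 44.1 and 33.8 at Pik3c2g. At A1bg they were below sons by 20.2 points in B6C3F1 and by 13.7 points in C3B6F1. With 3 animals per group, these differences between crosses did not pass at the windows tested.

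The windows of the genome whose methylation over the 24 animals was most like each locus were found by Pearson correlation, among 141137 to 141154 windows with a range of at least 20 points. These are descriptions, since the 24 points share the split by sex. For Dock1 (window 142235501) the closest were a window outside genes, 115640 bp from the nearest start, that of Dap (r = 0.988), and windows in Ttc39c (r = 0.986) and in Sntg2 itself (r = 0.986). For Sntg2 they overlapped no gene, and the nearest starts were those of Oma1 at 58488 bp (r = 0.989), Fam19a2 at 955869 bp (r = 0.988) and Rai14 at 4115 bp (r = 0.987). For Pik3c2g they lay in Arhgap23 (r = 0.987), Cdhr5 (r = 0.981) and Dock1 (r = 0.978). The Arhgap23 window shared the gap between dams at 65.0% ± 6.24 and daughters at 52.7% ± 5.58 (SD, n = 6). For A1bg (window 60751001, the lowest in position of 3 that held 8 CpGs of the interval each) they lay in Socs2 (r = 0.960), Zfp292 (r = 0.940) and Samm50 (r = 0.940). Of these 3 A1bg windows it had the smallest gap of dams to sires, -27.4 points against -50.8 and -41.3. It was not called between sons and daughters, and the likeness to the other A1bg windows was not read. Socs2, which encodes a suppressor of cytokine signalling that restrains growth hormone signalling, had 91.7% ± 2.11 in sires, 74.1% ± 2.31 in dams, 92.5% ± 2.21 in sons and 83.8% ± 3.18 in daughters. The Zfp292 window had daughters at 71.2% ± 5.13, between dams at 53.6% ± 4.57 and sons at 83.8% ± 2.41, as at A1bg. In the Samm50 window daughters, at 87.3% ± 1.27, lay beside sons, at 89.0% ± 1.73, and dams were at 73.2% ± 3.49.

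Relatives of the 3 larger genes were read in the same way. Of 15 family genes, 14 lay on autosomes, namely Pik3c2a and Pik3c2b, 9 Dock genes from Dock2 to Dock10, and the syntrophin genes Sntb1, Sntb2 and Sntg1. Of their 2511 windows, between 62 at Pik3c2a and 365 at Dock2, 0 passed between sons and daughters (limma), where 0.0510% of all windows did. An unadjusted p below 0.05 was reached by 173 of them (6.89%), near the 7.02% of all windows. Between the strains 14 of the 2511 windows were called (0.558%, limma), near the 0.494% of all windows. Of these, 9 lay in Sntg1, with 1 higher and 8 lower in B6, 2 each in Dock5 and Dock8, and 1 in Dock3.

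Motifs were searched in the 4 windows used for likeness. The STAT-type motif TTCNNNGAA, which reads the same on both strands, was absent from all 4, while 15.7% of all tested windows held it. The E-box CANNTG, also its own reverse complement, occurred 3 times in the A1bg window, 3 in Pik3c2g, 2 in Dock1 and 5 in Sntg2, and 93.8% of all windows held it. The motifs were searched separately, without regard to overlap between them. A match or its lack describes only the sequence of these windows.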

How the data were processed

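Bisulfite-treated liver DNA of 24 mice was sequenced. Per the labels the authors used CASAVA 1.8.2, Bismark 0.7.8, Bowtie 0.12.8 and Picard 1.110. They aligned reads to mm9 with phage lambda added, removed duplicates and kept autosomal CpGs present in mm9 and in both strains. The authors deposited raw counts of methylated and of unmethylated reads per CpG and animal, without normalization, and a list of the bases of mm9, B6 and C3 at SNVs. All count columns were used and 0 were left out. Samples of FOXA1 chromatin immunoprecipitation were not used here. Because percent methylation is a share of counts, depth sets its precision, and counts totalled 365740739 to 619888157 per animal.

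The genes, lists, intervals and tests were chosen with earlier results of these data known. Gene positions came from GENCODE for mm9, counted from 1. All 8823 CpG positions of the loci were CG in the mm9 sequence, and the listed mm9 base matched it at all 3689 SNVs. Interval values are summed counts per animal, in percent. Intervals joined at least 5 CpGs with gaps of at most 1000 bp. Windows of 500 nt were fitted by limma 3.58.1 in R 4.3.3 on log2((methylated + 1)/(unmethylated + 1)), with 8 group means over 24 animals and trended, robust variances. P-values were adjusted by Benjamini-Hochberg over 1456902 windows, from 4254058 with any CpG and 1496157 with at least 5, that also had 30 counts in each animal. The 7 intervals were compared between 6 sons and 6 daughters by two-sided exact permutation tests, whose p-values are all at the smallest possible value and stay at 0.00216 after adjustment over the 7. Named were all intervals, called windows with at most 3 per direction, and the 3 windows most correlated with each locus. The limma p-values set a difference of group means against the spread between animals. Both procedures were tested on simulated data. Alternatives were window minimums, pseudocount, scale, minimum difference, variance fit, grid, interval definition, SNV distance, replicate blocks and each animal left out. A gene of the family list is not reported here.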

Additional observations from a re-analysis of the deposited data

Results flagged for a closer look

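In each role of 6 animals, the gap of the highest or lowest animal to its nearest neighbour was compared with the range of the role, at the 7 intervals and the 14 windows that passed the rule in any comparison, that of sires and dams included. Of 84 such groups 3 had a gap above the 5% critical value of 0.625, where chance flags about 1 in 20 groups. At the A1bg window 60751001 to 60751500, son 1 of C3B6F1 had 79.9%, below the other sons, the nearest of which had 85.8%, and within the daughters' range of 71.3 to 80.6%. At the A1bg window 60751501 to 60752000, C3 dam 2 had 59.0%, above the other dams, the nearest of which had 40.4%. At the Pik3c2g window 139718501 to 139719000, B6 dam 1 had 88.9%, with the nearest dam at 92.6%.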

How the results depend on the processing

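The differences between daughters and sons at the 4 strongest intervals kept their direction and an exact permutation p below 0.05 in all 68 alternatives run. Leaving out each animal in turn moved them between -18.0 and -15.9 points at A1bg, 37.7 and 40.7 at Pik3c2g, 50.0 and 52.3 at Dock1, and 40.0 and 42.5 at Sntg2. Not all of the 68 could change a result. The intervals of A1bg and Dock1 had no CpG within 10 bp of an SNV to leave out. At Dock1 the interval at 30 points and the interval by single CpGs were the same. The 6 windows called between sons and daughters became 10 with at least 3 CpGs per window, of which 3 lay in Dock1 and 2 in Sntg2, and 5 to 7 when an animal was left out. The 6 windows called between the strains became 24 at a difference of 10 points, 1 with at least 100 counts, 16 with at least 3 CpGs, and 6 to 7 when an animal was left out. Both interactions and the comparison of the crosses gave 0 windows in the 4 loci under every alternative. Over the whole genome, the 743 windows between sons and daughters became 3719 at 10 points, 484 with at least 100 counts and 1473 with at least 3 CpGs. The 7200 between the strains became 34774, 3325 and 11253 in that order. Over the genome, 22 windows were called for the strain dependence of the sire-dam difference. They were 4 to 22 when an animal was left out, with 4 without B6 sire 3 or C3 sire 1. With a pseudocount of 5 they were 40, and 37 with the grid shifted by 250 bp. The 1 window for the cross dependence of the son-daughter difference became 0 to 3 when an animal was left out. These background shares are therefore unsteady.

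Whether equal replicate numbers mark animals of a family could not be told, and the exact permutation tests took sons and daughters as unlinked. Deviations from the group means correlated between -0.0259 and 0.0744 over 12 same-numbered pairs of a strain or cross. Over 168 pairs of other number the range was -0.0426 to 0.0388. The 12 include sires and dams of the same strain, which were not mated to each other, so these values do not decide on pairing. With the replicate number as a block the loci still had 6 windows between sons and daughters and 6 between the strains. The paired exact sign-flip test gave p = 0.03125 for the difference at each strongest interval, the smallest that 6 pairs allow. Leaving out CpGs within 10 bp of an SNV in the called windows was added after seeing the data and turned no direction. Depth limits Pik3c2g, where the windows called between sons and daughters had as few as 55 and 83 counts in an animal, and Sntg2, where 5 of the 6 called between the strains had as few as 61 to 95. Strain values at single intervals were not tested, neither within a sex nor over both sexes together. Within a sex, 3 animals against 3 animals allow no exact p below 0.1.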
